A study of Mus musculus with 16 samples.

Results

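The 10 genes described here encode the subunits of the transcription factor NF-κB (Nfkb1, Nfkb2, Rel, Rela and Relb), the inhibitors that hold it in the cytoplasm (Nfkbia, Nfkbib and Nfkbie) and a pair of feedback inhibitors of its upstream signalling (Tnip1 and Tnfaip3). They were chosen by name, 10 of the 52542 gene entries in the count tables, and all 10 had UMIs (unique molecular identifiers, each standing for 1 captured transcript). The cells were LSK cells, the lineage-negative, Sca1- and Kit-positive marrow fraction that holds blood stem cells and early progenitors, from C57BL/6J mice. The hosts, CD45.1/CD45.2 mice exposed to lethal irradiation, had received a 1:1 mixture of fetal liver cells, part of them control cells marked by CD45.1 and part Regnase-1-/-Regnase-3-/- cells marked by CD45.2. Single cells were sorted 4 weeks after the transfer. Regnase-1 is an RNase that degrades mRNAs of inflammatory genes. All 16 libraries carry the same labels, and neither these nor the well table gives the donor genotype or the mouse of a well, so no comparison of knockout with control cells was made.

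NF-κB proteins work as dimers. In resting cells IκB proteins mask them. Receptors for TNF, IL-1 and microbial products activate the IκB kinase, which marks IκB for destruction and lets dimers of RelA, c-Rel and p50 enter the nucleus, while a second route processes the Nfkb2 product and acts through RelB. Among the genes that NF-κB switches on are its own inhibitors, above all Nfkbia and Tnfaip3, which shut the signal off again. In blood stem and progenitor cells the pathway is known for emergency myelopoiesis and for the production of lymphoid cells.

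Promoter sequence bears on that feedback, so the members' promoters were searched for the κB consensus, a 10-base motif, on both strands, with overlapping matches counted once. RefSeq promoters of GRCm38.p6, which run from 250 bases before to 50 bases after a start, were given for 8 of the 10 members. A match was found in 6 of these 8 (Nfkb2, Nfkbia, Nfkbie, Rel, Tnfaip3 and Tnip1), and Nfkbib and Rela had none in this window. Of 27025 genes in the same table, 9.55% had a match. The 4 stretches below are shown because they hold a match and lie wholly upstream of the gene as annotated in GENCODE. Capitals mark the match, and each is written 5′ to 3′ on the strand of its gene.
Nfkbia, chr12:55492648-55492696, minus strand: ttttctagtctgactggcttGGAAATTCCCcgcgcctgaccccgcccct
Nfkbie, chr17:45555574-45555623, plus strand: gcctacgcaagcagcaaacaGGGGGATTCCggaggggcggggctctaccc
Rel, chr11:23771031-23771081, minus strand: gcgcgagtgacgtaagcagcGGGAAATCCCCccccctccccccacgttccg
Tnip1, chr11:54962967-54963018, minus strand: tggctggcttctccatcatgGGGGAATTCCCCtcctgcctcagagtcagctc
In Nfkbia the match begins 29 bases before the start, and in Tnip1 it is a palindrome read on either strand. A match describes the letters only, since no binding was measured in these cells.

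Kept cells numbered 5157, between 295 and 345 a library, with medians of 1146 to 1993 UMIs per cell, and no well name occurred in more than 1 library. Levels are given as CPM, the UMIs of a gene scaled to 1000000 UMIs of the library. MARS-seq tags the 3′ end and counts each molecule once, so levels of different genes were compared without correction for length. The 60 wells listed as empty held 0 UMIs of the members. These wells had 801 UMIs in all, where 3 counts would be 3745 CPM, so the 0 cannot show a lack of background. The sort was checked against Cd34, at a median of 602 CPM, Ly6a (the Sca1 gene), at 228 CPM, and Kit, at 179 CPM, all detected in every library. Lists of markers of other cells summed, over the libraries, to 120 to 247 CPM for neutrophils and macrophages, 106 to 360 CPM for erythroid cells and platelets, 95.8 to 206 CPM for T and NK cells, 32.4 to 162 CPM for endothelium and stroma, and 23.2 to 59.6 CPM for B cells. Most of each sum came from Lyz2 (median 178 CPM), Hbb-bt (138 CPM), Nkg7 (148 CPM), Pecam1 (47.9 CPM) and Cd79b (39.9 CPM), respectively. Ltf, Alas2, Cd3d, Cd3e, Cdh5 and Lepr had no UMI, and Ms4a1, Pax5 and Ebf1 had medians of 0.

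Among the subunits, Nfkb1, the gene of p105 and p50, was the most abundant at a median of 117 CPM over the 16 libraries, with 95.9 CPM in the lowest and 143 CPM in the highest. It gave 1244 UMIs and was seen in 948 cells, 18.4% (95% Wilson interval 17.3% to 19.5%). Rela, which encodes the activating subunit p65, followed at 58.0 CPM (38.0 to 72.6). No library had as much Rela as Nfkb1: the difference on the log2(CPM + 10) scale was 1.00 ± 0.25 (SD, n = 16), with Nfkb1 higher in 16 of 16 libraries (exact two-sided sign-flip permutation test, adjusted p = 0.000275 over 9 pairs of neighbours). Rel, the gene of c-Rel, stood at 25.5 CPM (7.87 to 34.8). The subunits of the second route were scarcest. Nfkb2 stood at 9.40 CPM (1.73 to 20.8) and Relb at 3.99 CPM (0 to 10.2), with 41 UMIs in all, at most 2 in any cell. In libraries 4, 10 and 16 Relb had no UMI, which allows a level of up to 5.31, 5.20 and 4.74 CPM, respectively (3 counts; counting error only).

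Of the IκB inhibitors, Nfkbia (IκBα) was at 37.5 CPM (20.8 to 54.2), Nfkbib (IκBβ) at 26.4 CPM (8.85 to 34.6) and Nfkbie (IκBε) at 14.8 CPM (4.17 to 24.8). Nfkbia was above Nfkbib in 15 of 16 libraries, by 0.55 ± 0.38 (SD, n = 16) on the log2(CPM + 10) scale (exact sign-flip permutation test, adjusted p = 0.000412). A single cell held 12 Nfkbia UMIs, the most of any member in any cell. Tnip1, which encodes the ubiquitin-binding inhibitor ABIN1, stood at 38.9 CPM (19.5 to 69.2). Tnfaip3, the gene of the ubiquitin-editing enzyme A20, was lower at 10.1 CPM (3.55 to 32.0), and its highest value, in library 2, stood above the next, 16.6 CPM.

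**Figure D1:**
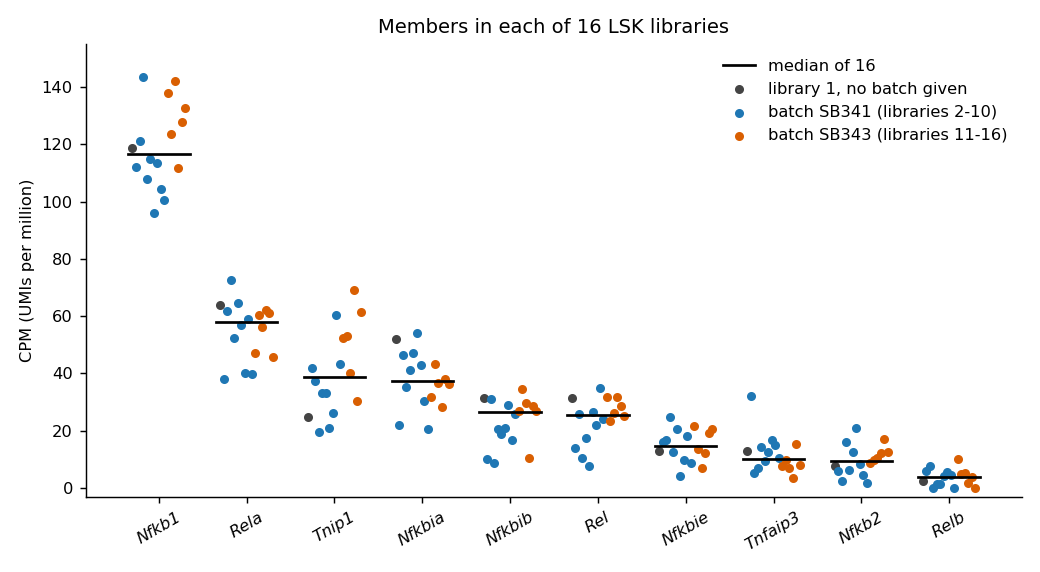
CPM of each member (y axis) in each of the 16 LSK libraries (points, in library order within a gene and coloured by sequencing batch), with the median of the 16 as a line. Nfkb1 lies above every other member in all libraries, and the members below Nfkbia overlap widely.

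In the order of the medians, 5 of the 9 neighbouring pairs differed. Besides the pairs above, Rela exceeded Tnip1 (exact permutation test, adjusted p = 0.0190, higher in 10 of 16 libraries), Rel exceeded Nfkbie (exact permutation test, adjusted p = 0.0209, 13 of 16) and Nfkb2 exceeded Relb (exact permutation test, adjusted p = 0.00586, 12 of 16). The neighbours Tnip1 and Nfkbia, Nfkbib and Rel, Nfkbie and Tnfaip3, and Tnfaip3 and Nfkb2 were not told apart beyond their spread. With each cell thinned to 500 UMIs, 2 pairs remained past the threshold, Nfkb1 over Rela and Nfkbia over Nfkbib.

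The members differed in how evenly they were spread over libraries. Variance of the counts, divided by what counting alone gives, was 1.11 for Nfkb1 and 1.15 for Rela, against a median of 1.76 over 12405 genes with at least 30 UMIs. Rel, Relb, Nfkbia, Nfkbib, Nfkbie and Nfkb2 lay between 1.44 and 1.83, and Tnfaip3 was at 2.15. Tnip1 varied most, at 3.70, above 88.3% of the genes compared. This ratio is a description of these libraries, which may share mice.

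Few cells showed more than 1 member at a time. No member was seen in 58.9% of cells, 1 member in 29.9% and 2 in 8.90%. Depth moved with this count: the median UMIs per cell were 1292 in cells without a member, 1876.5 with 1 and 2729 with 2. After thinning to 500 UMIs, 84.3% of cells showed no member, so the counts of members per cell give no measure of co-expression.

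Cells were then gated by lineage within libraries, to ask where in the LSK fraction each member is found. A cell entered a gate if it held UMIs of at least 2 different markers of that list and more than of any other list. The stem gate (markers such as Hlf, Mecom and Procr) held 242 cells, the granule gate (Mpo, Elane, Prtn3) 1108, the lymphoid gate (Dntt, Il7r, Rag1) 540 and the megakaryocyte-erythroid gate (Pf4, Gata1, Klf1) 165. A monocyte-dendritic gate held 25 cells, never 10 in a library, and was not tested, and 3077 cells entered no gate. Median UMIs per cell were 1760 in the stem gate, 2370 in the granule gate, 1981 in the lymphoid gate, 2736 in the megakaryocyte-erythroid gate and 1251 in ungated cells. Genes of the LSK fraction (Kit, Ly6a, Cd34, Flt3, Cd48 and Meis1) summed to 1341, 1484, 1681 and 557 CPM in the stem, granule, lymphoid and megakaryocyte-erythroid gates, so the last stood apart. The tested markers of mature neutrophils and macrophages, of B cells, of T and NK cells and of erythroid cells and platelets were also called across the gates, and their part in the members' values was not tested. UMIs were summed per library and gate with at least 10 cells, which gave 12, 16, 16 and 7 sums. Sums were compared with edgeR's quasi-likelihood test with the library as block and Benjamini-Hochberg adjustment over all 10718 genes tested. Relb had too few UMIs to be tested. Because cells were placed by their own expression, genes that vary with the markers may differ between gates through the gating itself, and p-values understate the error by an amount that is not known.

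Across the 4 gates 1 of the 9 tested members, Rel, passed the threshold (adjusted p = 0.0282), where 7.47% of all tested genes did. Nfkbie (adjusted p = 0.0873) and Nfkbib (adjusted p = 0.166) came next. The unadjusted p was under 0.05 for 3 members (19.3% of all genes). DESeq2 called 3 members, where it called 14.3% of all genes. The call of Rel held in 16 of 28 alternative settings, with adjusted p from 0.00815 to 0.598. It was lost without the library block (adjusted p = 0.211), without a filter on low counts (0.0726), with 3 markers per gate (0.593), with gates set by 2 UMIs (0.0553), within either sequencing batch (0.598 in SB341 and 0.0501 in SB343), and when library 1, 6, 7, 11, 14 or 15 was left out (0.0635, 0.0504, 0.0682, 0.109, 0.0705 and 0.0697).

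Rel, whose product is known in lymphocyte activation, was pooled over each gate at 34.2 CPM in lymphoid-gated cells (44 UMIs), 26.0 CPM in granule-gated cells (82 UMIs), 13.4 CPM in stem-gated cells (7 UMIs) and 6.76 CPM in megakaryocyte-erythroid-gated cells (4 UMIs, 10.5 CPM over the sums tested). In the lymphoid gate the 16 libraries ran from 0 to 118 CPM with a median of 39.5 CPM, and 1 library had no UMI. In the stem gate 8 of 12 libraries had none. The other values were 36.3 CPM in library 2 and 60.7, 83.8 and 66.9 CPM in libraries 11, 13 and 15, each from 1 or 2 UMIs. Libraries 11, 13 and 15 hold all the stem sums of batch SB343, and their lymphoid sums read 118, 70.2 and 72.2 CPM. The low pooled stem value thus comes from the other libraries. The megakaryocyte-erythroid gate, filled in libraries 10 to 16 only, read 18.4, 12.5, 0, 29.8, 0, 0 and 15.5 CPM. Lymphoid-gated cells of these same libraries read 24.3, 118, 45.1, 70.2, 55.3, 72.2 and 42.6 CPM. In each of the 7 libraries the lymphoid value was the higher, though the ranges of the groups overlapped. These are 16 UMIs in 140 cells against 4 UMIs in 109 cells, a ratio of 5.58 (exact 95% interval 1.80 to 23.0, counting error only).

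That contrast, chosen after the values were seen, gave a log2 fold change of 2.47 ± 0.68 (SE) for Rel in lymphoid- over megakaryocyte-erythroid-gated cells (edgeR, adjusted p = 0.00996, higher in 7 of 7 libraries). For 4 of the 9 tested members the unadjusted p was under 0.05 (16.8% of all genes). Rel was the only member called, where 6.07% of all tested genes were, and DESeq2 also called 1 member (3.76% of all genes). Over 28 alternatives the log2 fold change stayed above 0, from 0.45 to 2.86, and 24 kept the call, with adjusted p from 0.00165 to 0.955. Within batch SB341, where only library 10 has this gate, the log2 fold change was 0.45 (adjusted p = 0.955), and within SB343 it was 2.83 (adjusted p = 0.018). Without library 11 the adjusted p was 0.0680, and without the library block it was 0.102 at a log2 fold change of 1.72. With 3 markers per gate the call was also lost, at a log2 fold change of 2.86. Among the alternatives that kept the call are those that left out a library without a megakaryocyte-erythroid sum. Such settings remove none of that gate's UMIs, so they say little about how firm the call is. The megakaryocyte-erythroid gate was also the one low in LSK genes and the deepest of the 4 per cell, and the part of either in the result was not tested.

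**Figure D2:**
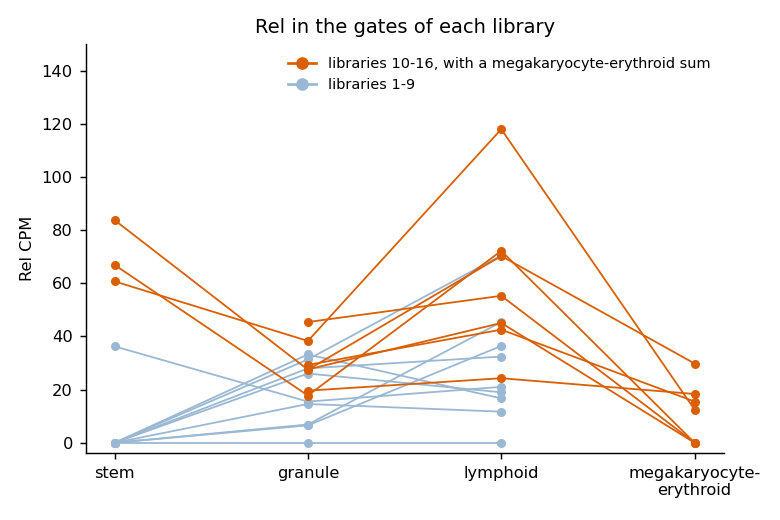
CPM of Rel (y axis) in the gates of each library (lines join the sums of 1 library, with at least 10 cells each). In libraries 10 to 16 (orange) the lymphoid value lies above the megakaryocyte-erythroid value, and most stem sums are at 0.

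Against the stem gate no member passed the threshold with edgeR: 0 of 9 in granule-gated cells (background 1.1%), 0 of 9 in lymphoid-gated cells (background 1.76%) and 0 of 9 in megakaryocyte-erythroid-gated cells (background 2.55%). At an unadjusted p under 0.05 the counts were 0, 2 and 2 (11.2%, 10.6% and 13.6% of all genes). DESeq2 called 1, 0 and 0 members, where it called 10.7%, 4.35% and 2.76% of all genes. These contrasts share the stem sums and are not independent. Between granule- and lymphoid-gated cells 0 of 9 members were called, where 2.02% of all genes were. At so low a share, a count of 0 does not show that the members are alike in these gates. The log2 fold change of Rel in granule- over lymphoid-gated cells was -0.93 ± 0.33 (SE) and did not pass (edgeR, adjusted p = 0.154). Rel was lower in granule-gated cells in 12 of 16 libraries and higher in 3. In granule- against megakaryocyte-erythroid-gated cells the count was again 0 of 9, where 4.82% of all genes were called. At an unadjusted p under 0.05 these 2 contrasts had 1 and 3 members (11.1% and 15.6% of all genes). DESeq2 called 0 members in each, where it called 2.43% and 4.17% of all genes.

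Nfkb1 was measured most closely. It stood at 92.2 CPM in stem-gated, 128 CPM in granule-gated, 131 CPM in lymphoid-gated and 113 CPM in megakaryocyte-erythroid-gated cells, and its libraries overlapped in all gates. Its log2 fold change was 0.34 ± 0.26 (SE) in granule- against stem-gated cells, with a 95% interval from -0.16 to 0.84. Under scaling that placed the median of all genes higher in granule-gated cells, this value was called: it was 0.90 with DESeq2 size factors (edgeR, adjusted p = 0.00591) and 0.96 with DESeq2 itself (adjusted p = 0.00538). Between granule- and lymphoid-gated cells the difference in Nfkb1 was -0.03 (95% interval -0.36 to 0.29). Rela stood at 57.6, 50.7, 64.5 and 40.5 CPM in the stem, granule, lymphoid and megakaryocyte-erythroid gates, with no call in any contrast.

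Among the inhibitors, Nfkbie was rarest in the stem gate, with 1 UMI in 12 libraries (1.92 CPM), against 45 UMIs in granule-gated cells (14.3 CPM) and 28 in lymphoid-gated cells (21.8 CPM). The ratio of lymphoid- to stem-gated cells was 9.72 with an exact 95% interval from 1.61 to 398 for counting error. The edgeR value was a log2 fold change of 2.83 ± 1.01 (SE), which did not pass (adjusted p = 0.158), with the lymphoid value higher in 10 of 12 libraries. It did pass without library 2, the only library with a stem-gated Nfkbie UMI (edgeR, log2 fold change 4.53, adjusted p = 0.0313).

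Nfkbib was highest in the megakaryocyte-erythroid gate, at 49.0 CPM, against 13.4 CPM in stem-gated, 27.9 CPM in granule-gated and 24.9 CPM in lymphoid-gated cells. Libraries 10 to 16 read 0, 74.8, 67.2, 29.8, 16.8, 114 and 77.5 CPM in that gate. Against the stem gate the log2 fold change was 2.15 ± 0.72 (SE), higher in 3 of the 3 libraries that hold sums of both (edgeR, adjusted p = 0.0839, past the threshold with DESeq2 size factors at 0.0291). Over the sums tested, Nfkbia was at 44.7, 35.2, 38.1 and 18.4 CPM in the stem, granule, lymphoid and megakaryocyte-erythroid gates, with no call in any contrast. The last value rests on 7 UMIs, 3 of them in library 12, and was 11.9 CPM without that library. Pooled over all cells of the megakaryocyte-erythroid gate, including those in libraries with under 10 such cells, Nfkbia was at 38.8 CPM. Tnip1 was at 29.1, 42.8, 30.3 and 39.4 CPM over the sums, also without a call. Its stem value fell to 14.5 CPM without library 9, which gave 7 of the 13 UMIs and stood at 207 CPM. Tnfaip3, pooled over all cells of each gate, was at 19.2, 8.24, 19.4 and 6.76 CPM and was not called. Its medians over libraries ran otherwise, at 0, 9.43, 6.95 and 0 CPM in the same order of gates. Library 2 gave 9 of the 25 Tnfaip3 UMIs in the lymphoid gate and 3 of the 10 in the stem gate.

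The subunits of the second route gave too few UMIs for an order of gates. Nfkb2 was at 7.68, 7.92, 11.7 and 8.44 CPM, and the 7 megakaryocyte-erythroid sums held 0 of its UMIs, so its fitted change there depends on the prior count. Relb had 7 UMIs in stem-gated cells (13.4 CPM), 12 in granule-gated (3.80 CPM), 4 in lymphoid-gated (3.11 CPM) and 2 in megakaryocyte-erythroid-gated cells (3.38 CPM). The ratio of granule- to stem-gated Relb, 0.243, had an exact 95% interval from 0.0881 to 0.728 for counting error, and it was not tested over libraries. In 8 of 12 libraries the stem gate had no Relb UMI, and library 3 gave 3 of the 7. Over the stem sums Relb was at 15.7 CPM, and at 9.96 CPM without that library.

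**Figure D3:**
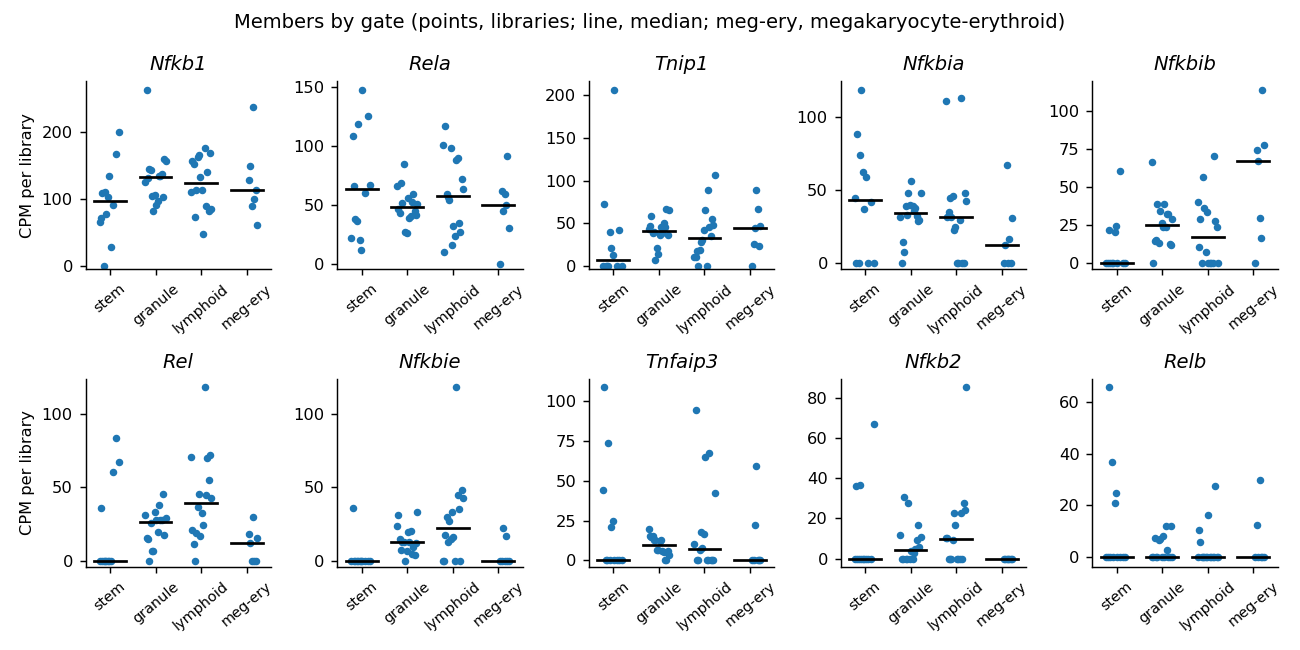
CPM per library (y axis, own scale for each gene) of the 10 members in the stem, granule, lymphoid and megakaryocyte-erythroid gates (points, libraries with at least 10 cells; lines, medians). Nfkb1 and Rela overlap across all gates. In the stem gate the medians of Nfkb2, Rel, Relb, Nfkbib, Nfkbie and Tnfaip3 are 0.

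**Figure D4:**
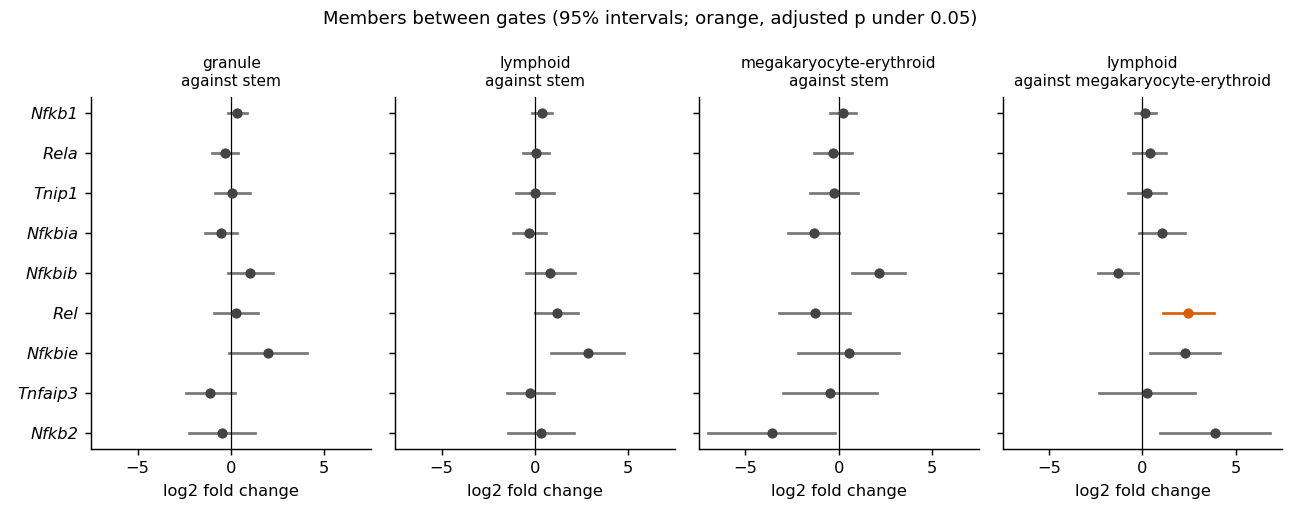
Log2 fold change between gates (x axis) of the 9 tested members, with 95% intervals, from edgeR. Rel in the rightmost contrast (2.47) is the only value with an adjusted p under 0.05, and the wide interval of Nfkb2 beside the megakaryocyte-erythroid gate rests on 0 UMIs there.

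No member was called between the sequencing batches. In SB343 (6 libraries) against SB341 (9 libraries), 0 of 10 were called by edgeR where 11.1% of 12245 genes were, 1 had an unadjusted p under 0.05 (22.4% of all genes), and DESeq2 called 0 (10.6% of all genes). Tnip1 was nearest, with a median of 52.7 CPM (30.5 to 69.2) in SB343 and 33.4 CPM (19.5 to 60.5) in SB341, ranges that overlap, and a log2 fold change of 0.47 ± 0.21 (SE, adjusted p = 0.151). Without library 9, the highest of SB341, it passed (log2 fold change 0.62, adjusted p = 0.0340). Tnfaip3 went the other way, at 7.78 CPM (3.55 to 15.3) in SB343 and 12.5 CPM (5.16 to 32.0) in SB341 (log2 fold change -0.71, adjusted p = 0.246).

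Other parts of the pathway were measured from lists of receptors, kinases and adaptors, further inhibitors, and target genes. Across the gates 6 of the 64 tested genes of these lists were called by edgeR, 9.38%, where 7.47% of all genes were. Of the 14 receptors 8 were tested between the gates and 2 were called. Il1r1, the IL-1 receptor, had 0 UMIs in the 7 megakaryocyte-erythroid sums. In the same 7 libraries it was at 33.0 CPM in the lymphoid sums (9 UMIs; edgeR, adjusted p across gates = 0.00485). That is 4.19 times the CPM that 3 counts would give in the megakaryocyte-erythroid sums. Tlr7, a receptor for RNA, had 0 UMIs in the 12 stem sums. In the same 12 libraries it was at 28.6 CPM in the lymphoid sums (32 UMIs; edgeR, lymphoid against stem, adjusted p = 0.00986). That is 4.26 times the CPM that 3 counts would give in the stem sums. Neither multiple includes the counting error of the lymphoid UMIs, so neither is a lower bound. The receptors with most UMIs were Tnfrsf1a at a median of 59.2 CPM, Ltbr at 28.3 CPM and Il1r1 at 21.6 CPM.

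Of the kinases and adaptors 0 of 23 tested were called across the gates by edgeR, with 3 at an unadjusted p under 0.05 and 2 called by DESeq2. Of the further inhibitors 0 of 15 were called by edgeR, with 5 at an unadjusted p under 0.05 and 0 called by DESeq2. For both lists the shares over all genes were 7.47% (edgeR), 19.3% (unadjusted) and 14.3% (DESeq2). In contrasts added after the values were seen, 1 of these 15 inhibitors was called in each of 2 (6.07% and 4.82% of all genes, in the order below). Nfkbiz, the gene of a nuclear IκB protein, was higher in lymphoid- than in megakaryocyte-erythroid-gated cells (log2 fold change 2.47 ± 0.72 SE, adjusted p = 0.0167), with 4 UMIs in the latter sums. Otulin, a deubiquitinase gene, was lower in granule- than in megakaryocyte-erythroid-gated cells (-0.99 ± 0.32 SE, adjusted p = 0.0429). Both calls are by edgeR. DESeq2 called 0 of these 15 inhibitors in each of the 2 contrasts, where it called 3.76% and 4.17% of all genes. The most abundant kinases and adaptors were Irak1 at 137 CPM, Tab2 at 102 CPM and Rbck1 at 81.1 CPM, and the most abundant inhibitors were Tax1bp1 at 280 CPM, Commd1 at 91.2 CPM and Otulin at 50.3 CPM.

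Of 18 tested target genes 4 were called across the gates by edgeR, where 7.47% of all genes were. Ebi3, a cytokine subunit gene, was lower in megakaryocyte-erythroid sums (55.2 CPM) than in stem sums (121 CPM). Its log2 fold change was -2.25 ± 0.41 SE (edgeR, adjusted p = 1.65e-05). These CPM come from 7 and 12 libraries, of which only 3 hold both sums, so they are not matched by library as the fit is. Sod2, the mitochondrial superoxide dismutase, was at 160 CPM in megakaryocyte-erythroid sums and at 73.8, 73.5 and 58.3 CPM in the stem, granule and lymphoid sums (adjusted p across gates = 0.00399). Tnfaip2 was at 118 CPM in megakaryocyte-erythroid and 2.33 CPM in lymphoid sums (adjusted p across gates = 6.44e-11). Ccl5, a chemokine gene, was at 17.9 CPM in lymphoid sums with 0 UMIs in the megakaryocyte-erythroid sums (edgeR, adjusted p across gates = 0.0174). In the 7 libraries that hold both sums, Ccl5 was at 62.3 CPM in the lymphoid sums, from 17 UMIs in 4 of them. The CPM of Sod2 and Tnfaip2, like those of Ebi3, are not matched by library. Of the 4 gates, the megakaryocyte-erythroid sums had the highest values of Sod2 and Tnfaip2 and the lowest of Ebi3. Ccl5 gave 2 UMIs in the stem sums, too few for an order beside 0. The most abundant targets were Myc at 244 CPM, Cd44 at 120 CPM and Ebi3 at 86.3 CPM.

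Between sequencing batches 6 of the 69 tested genes of these lists were called, 8.70%, below the 11.1% of all genes. They are named here after their values were seen. Bcl3, Nfkbid and Ebi3 were higher in SB343 (log2 fold changes 1.10, 1.34 and 1.27) and Il1r1, Il1b and Tlr4 lower (-1.16, -1.77 and -1.30). Tlr4 lost the call when sums were scaled by total UMIs (adjusted p = 0.0685).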

How the data were processed

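Single LSK cells of 16 libraries (384 wells each) were profiled by MARS-seq, per the labels' protocols. The authors deposited raw UMI counts per gene and well, and a well table with the number of cells per well and the sequencing batch. The submitters' processing notes name bcl2fastq 2.15.0.4 and the build mm10, with aligner, annotation and strand use not given in the sources used here. Libraries held 521435 to 822534 UMIs, which limits scarce members to a few counts per sum. Wells with at least 500 UMIs without spike-ins, under 20% mitochondrial UMIs and not listed as empty were kept. Library 1 is not in the well table and has no batch. Nothing says that libraries came from separate mice, so p-values measure only the spread between libraries.

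Tests used edgeR 4.0.16 in R 4.3.3 on genes with at least 30 UMIs, without the gate markers, at an adjusted p of 0.05. DESeq2 1.42.0 was an alternative. Sums of different gates can come from the same library, so the library was the block, as the design set. Not every library holds both sums of a contrast. Those that do number 16 for granule against lymphoid and 12 for granule or lymphoid against stem. For the megakaryocyte-erythroid gate they number 7 against granule or lymphoid and 3 against stem. The result without the block is given where it differs. TMM factors were taken from genes with a mean of at least 10 UMIs per sum. The design had TMM over all tested genes. It was changed after those results had been seen, because on simulated counts without a shift that scaling called many unchanged genes. The simulated gates shared the same profile, apart from genes changed on purpose. They cannot show which scaling is right for gates that differ in composition. Results with TMM over all tested genes are given as an alternative. Named genes were all members, list genes called across gates or against the stem gate, the 3 most abundant of each list, and the 5 genes most like Nfkb1 and Rela. Members, gates and lists were chosen with earlier results of these data known. Gene positions follow GENCODE M21 (GRCm38, which is mm10).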

Additional observations from a re-analysis of the deposited data

Results flagged for a closer look

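In 29 groups of 6 to 9 libraries tested for an outlying library, 4 were found, where about 1 in 20 is expected by chance. Tnfaip3 in library 2 (32.0 CPM, next 16.6 CPM) stood above the other libraries of batch SB341. Nfkbib in library 14 (10.6 CPM, next 26.8 CPM) stood below those of batch SB343. In the megakaryocyte-erythroid gate library 13, with 12 cells, stood above the others for Relb (29.8 CPM) and Tnfaip3 (59.6 CPM), values of 1 and 2 UMIs. The 86 wells left out for mitochondrial UMIs held 27 UMIs of the members, 269.7 CPM against 341.8 CPM in kept cells. The empty wells held 0, but with 801 UMIs in all they are too shallow for a comparison.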

How the results depend on the processing

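Calls near the threshold differed with the scaling. With DESeq2 size factors 4 members were called across gates, with DESeq2 3 and with TMM over all tested genes 2. Each of these called 1 member in granule- against stem-gated cells (Nfkb1), and the first and last called 1 in lymphoid- against stem-gated cells (Nfkbie). With DESeq2 size factors 1 was called in megakaryocyte-erythroid- against stem-gated cells (Nfkbib). These scalings moved the median log2 fold change of all genes in granule- against stem-gated cells from -0.08 to 0.47, 0.43 and 0.38. The share of higher calls moved from 27.1% to 97.5%, 98.4% and 96.1% there, from 36.0% to 88.9%, 89.5% and 85.4% in lymphoid- against stem-gated cells, from 40.3% to 79.8%, 79.1% and 65.5% in megakaryocyte-erythroid- against stem-gated cells, from 31.0% to 83.8%, 85.8% and 75.8% in granule- against lymphoid-gated cells, and from 48.7% to 79.8%, 81.0% and 83.1% in granule- against megakaryocyte-erythroid-gated cells. With TMM over all genes it went from 56.2% to 69.3% in lymphoid- against megakaryocyte-erythroid-gated cells. With total UMIs it was 44.2% for granule against stem, 52.6% for megakaryocyte-erythroid against stem, 41.1% for granule against lymphoid and, between batches, 47.3% against 32.6%. Across gates 0 members were called with no replicate block, no filter on low counts, filterByExpr, 3 different markers per gate, gates or cells thinned to 500 UMIs, within either batch and with gates of 2 UMIs. Rel was not tested between gates with filterByExpr, thinned gates or thinned cells, which left 1, 1 and 4 members, so the counts of 0 there are no lost call. In lymphoid- against megakaryocyte-erythroid-gated cells the count was 0 without the block, with filterByExpr, with 3 markers, with thinned cells and within SB341, and 2 with gates of 2 UMIs, a setting that also called 1 in granule- against megakaryocyte-erythroid-gated cells. Leaving out 1 library gave 0 to 2 members across gates, 0 to 1 in lymphoid against stem, 0 to 1 in lymphoid against megakaryocyte-erythroid and 0 to 1 between batches. The cause was not tested. Genes called in all went from 801 to 3 at the fewest (thinned gates) and 1878 at the most across gates, from 118 to 10 and 1414 for granule against stem, from 189 to 8 and 613 for lymphoid against stem, from 273 to 6 and 584 for megakaryocyte-erythroid against stem, from 216 to 3 and 445 for granule against lymphoid, from 517 to 26 and 792 for granule against megakaryocyte-erythroid, from 651 to 34 and 1018 for lymphoid against megakaryocyte-erythroid, and from 1362 to 666 and 1475 between batches. With the total taken without mitochondrial and ribosomal protein genes the medians were 154 CPM for Nfkb1, 76.5 for Rela, 49.0 for Nfkbia and 33.4 for Rel. With cells thinned, Relb was at 0 and Nfkbib at 15.8 CPM, 2 pairs of neighbours differed, and Nfkbib over Rel changed sign to 0.11. Of 1976 single values of members, 16 lost and 17 gained a call, no called value changed sign, and 135 that were called in neither setting did. The monocyte-dendritic contrast set in the design could not be fitted at 10 cells per sum. Depth limits Relb, Nfkb2, Tnfaip3 and Nfkbie, at under 20 CPM, to 1 to 4 UMIs in many sums.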

Other observations

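The genes most like Nfkb1 over 51 library and gate sums, by Pearson's r of log2(CPM + 10) among 2900 genes with at least 300 UMIs, were Cse1l (0.62), Rps27l (0.62), Cuedc2 (0.61), Vkorc1 (0.61) and Cct7 (0.60), where the median gene had 0.06. For Rela they were Mndal (0.50), Gm4204 (0.49), Aldh2 (0.43), Crlf3 (0.43) and D8Ertd738e (0.43). Sums of a library share cells' source and depth, so these values describe the sums only.

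Early stress genes, which dissociation and sorting can raise, summed to a median of 118 CPM over the libraries (79.7 to 406, highest in library 8), with the most UMIs from Ier2 (median 29.3 CPM), Klf6 (22.1 CPM) and Zfp36 (14.5 CPM). Across the gates 0 of 10 tested were called by edgeR (7.47% of all genes), with 1 at an unadjusted p under 0.05 (19.3%) and 0 called by DESeq2 (14.3%). In library 8 Nfkbia was at 43.0 CPM (median of all libraries 37.5 CPM) and Tnfaip3 at 16.6 CPM (median 10.1 CPM). Only library 2 had more Tnfaip3, at 32.0 CPM. A relation of the members to the stress genes was not tested. The nuclear IκB gene Nfkbiz varied between libraries by 11.7 times counting variance, more than any member. In libraries 1 to 8 Nfkbiz read 5.21, 6.00, 5.16, 1.77, 4.76, 0, 0 and 2.77 CPM, and in libraries 9 to 16 it read 40.8, 52.0, 45.9, 34.6, 40.3, 33.7, 26.7 and 19.0 CPM, which lie apart. Tnip1 read 24.8, 42.0, 37.4, 19.5, 33.4, 33.05, 20.8 and 26.3 CPM in libraries 1 to 8 and 60.5, 43.3, 52.3, 53.1, 40.3, 69.2, 30.5 and 61.6 CPM in libraries 9 to 16, which overlap. The labels name no such division of the libraries, and it was not tested.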
